A study of Homo sapiens with 12 samples.

Results

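The genes described here encode integrin subunits and laminin chains, the receptors and the matrix ligands through which epithelial cells hold on to a basement membrane. They are 37 genes of a fixed list, 18 integrin alpha subunits, 8 integrin beta subunits and 11 laminin chains. They were found by gene name among the 29744 entries of the count table. The list does not hold every laminin chain, and chains outside it are not analysed here. RNA was sequenced from 12 libraries of MB157, an established cell line of triple-negative breast cancer, and of MB157R, a derivative that grew out over 25 weeks in 1 µM of a gamma-secretase inhibitor (GSI). MB157 cells carry a deletion inside NOTCH1 that leaves a shortened, constitutively active receptor, which GSI blocks. The 4 groups had 3 libraries each. They were MB157R with an inducible active NOTCH1 (MB157R iN1-ICD), MB157R with the inducible empty vector (MB157R iEV), MB157 with inducible SOX2 (MB157 iSOX2) and MB157 with the empty vector (MB157 iEV). All of them carry a lentiviral doxycycline-inducible vector and, by the labels, received 1 µg/ml doxycycline for 72 h. Each background is 1 cell line. The labels do not say whether MB157R cells were kept in GSI until the RNA was taken. By the study's methods the N1-ICD insert is NOTCH1 without its extracellular domain, and whether GSI blocks this insert is not stated there.

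An integrin is a pair of 1 alpha and 1 beta subunit that spans the plasma membrane, binds a matrix protein or a cell surface ligand outside and is tied to the cytoskeleton inside. ITGB1 is the common partner of most alpha subunits, whereas ITGB4 pairs with ITGA6 and anchors the cell to laminin at hemidesmosomes, the rivets that tie keratin filaments to the basement membrane. Subunits such as ITGAV, ITGB5, ITGB6 and ITGB8 form receptors for the RGD sequence of fibronectin, vitronectin and latent TGF-beta, and ITGB2 with ITGAL, ITGAM, ITGAX or ITGAD forms the receptors of leukocytes. A laminin is a trimer of an alpha, a beta and a gamma chain, the alpha chain carries the main integrin-binding domains, and LAMA3 and LAMB3 are chains of the laminin of hemidesmosomes.

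The libraries held between 32773820 and 49055208 estimated counts. Levels are given as CPM, counts relative to library size, with TMM factors computed over the 12 libraries, with the standard deviation (SD) of 3 libraries, and differences as log2 fold changes with the standard error (SE) from edgeR's quasi-likelihood test. The threshold for a call was 0.05 after Benjamini-Hochberg adjustment over every gene tested in a comparison. The labels name the replicates biological and say no more of how they were grown, so a p-value here speaks of the spread between 3 libraries. Each induced gene was higher in its own group. SOX2 stood at 291, 335 and 298 CPM in MB157 iSOX2, against 6.62, 7.69 and 6.99 CPM in MB157 iEV, and NOTCH1 at 2617, 1760.1 and 2588 CPM in MB157R iN1-ICD, against 102, 85.4 and 90.1 CPM in MB157R iEV. Reads from the vectors count towards these values. SOX2 was lower in MB157R iN1-ICD, at 19.3, 19.9 and 17.2 CPM, against 62.2, 65.4 and 53.4 CPM in MB157R iEV. The NOTCH target genes HEYL and HEY2 had 131 and 75 counts over the 3 MB157R iN1-ICD libraries and 0 counts in MB157R iEV. With 3 counts as the floor in MB157R iEV, they were at least 45.2-fold and 25.9-fold higher in MB157R iN1-ICD. On the same floor they were at least 792-fold and 490-fold higher in MB157 iEV, so neither reached its MB157 iEV level. Among the markers of breast and other epithelium, the summed level of 8 genes lay between 11903 and 14429 CPM in MB157R iN1-ICD, 4589 and 4784 CPM in MB157R iEV, 1865 and 1925 CPM in MB157 iSOX2, and 2871 and 2938 CPM in MB157 iEV. Between the lines 4 of these 8 were called higher in MB157R iEV and 4 lower, against 45.0% and 45.3% of all genes tested. EPCAM (log2 fold change -0.48) and CDH1 (-0.91) were lower with KRT5 and KRT14, and the other 4, all keratins, were higher. With SOX2 6 were lower, against 33.9% of all genes, and EPCAM and CDH1 were not called. With N1-ICD 7 were higher, against 29.8%, and EPCAM was lower (-0.19). In a bulk library fewer cells with a transcript and less transcript per cell cannot be told apart.

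Of the 37 genes, 21 reached a mean of 10 CPM in at least 1 group, 9 lay between 1 and 10 CPM and 7 stayed under 1 CPM everywhere. The heatmap of levels shows that the largest contrasts ran between the 2 cell lines rather than between an induction and its control.

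**Figure D1:**
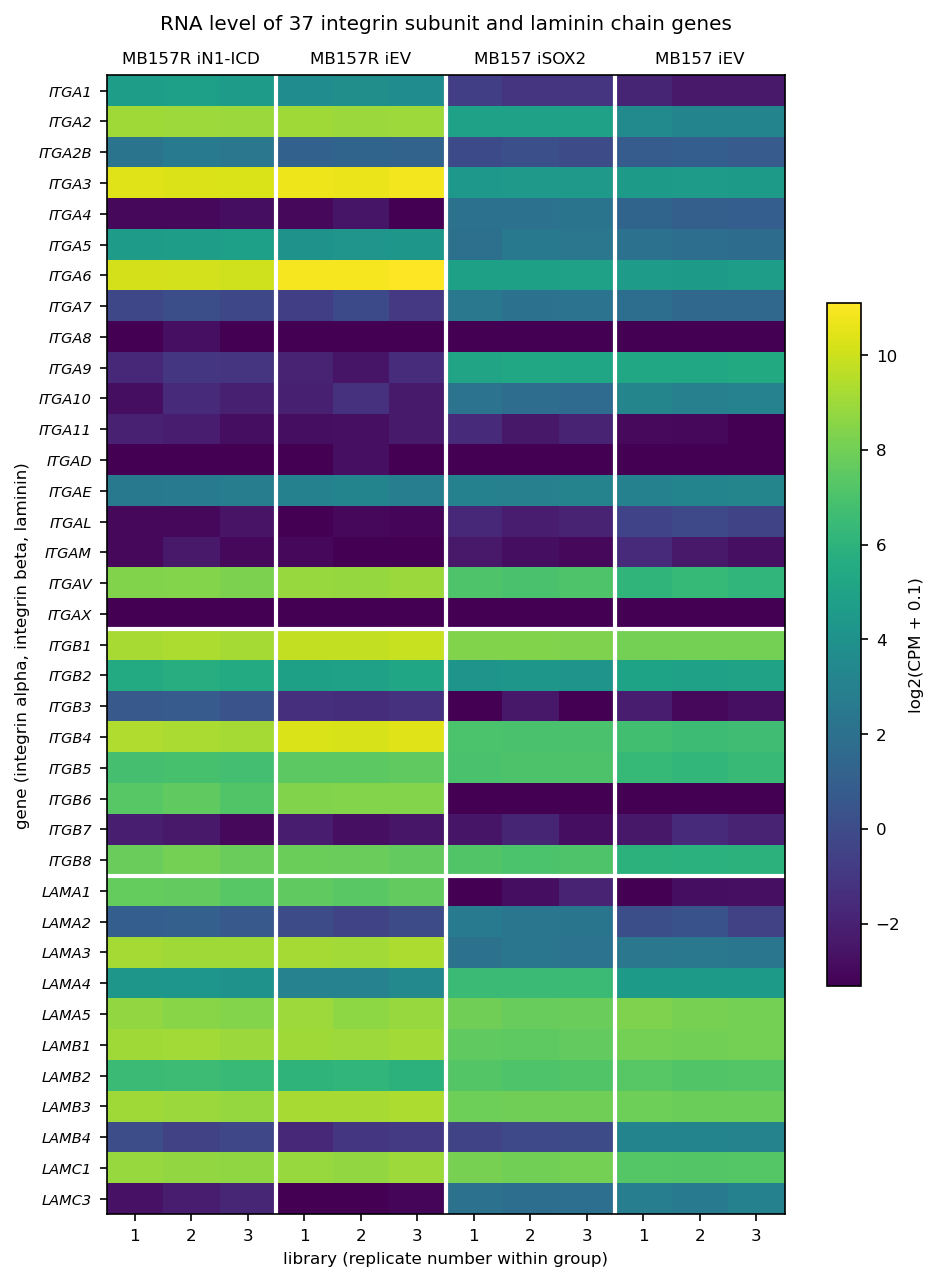
Colour shows log2(CPM + 0.1) of each of the 37 genes (rows: 18 integrin alpha, 8 integrin beta, 11 laminin genes) in each of the 12 libraries (columns, 3 per group, numbered by replicate). ITGA3 and ITGA6 are the brightest rows in the MB157R libraries, ITGB6 has 0 counts in all 6 MB157 libraries, and ITGA9, LAMC3, ITGA10 and ITGA4 are brighter in MB157.

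The first comparison asks how GSI-resistant MB157R cells differ from the drug-sensitive line they came from, both with the empty vector. The authors' filter passed 22 of the 37 genes. MB157R iEV had 17 of these at a higher level and 3 at a lower one (ITGA9, LAMA4 and LAMB2), and 2 were not called (ITGAE and ITGB2). Over all 11435 genes tested 90.2% were called, 45.0% higher and 45.3% lower. The share of these genes that was called, 90.9%, is close to that background. The median log2 fold change was 1.79 over the 22 genes, also with ITGB6 at its lower bound, and -0.00 over all genes tested. At 2-fold or more 15 of the 22 were higher, against 20.7% of all genes, and 3 were lower, against 18.1%. The libraries of the groups did not overlap for 20 of the 22 genes tested, all 20 of them called, and for 90.7% of all genes tested. In each comparison this share of all genes was read with library totals alone, without TMM factors. The authors' filter removes genes with low TPM, so a gene passes it through the group in which it is high, and these counts describe the genes that passed.

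The subunits of the hemidesmosome integrin were among the most abundant transcripts of the group in MB157R. ITGA6 (hg38 chromosome 2, 172427354 to 172506459) had 1934, 1889 and 2192 CPM in MB157R iEV, against 23.7, 23.2 and 26.2 CPM in MB157 iEV, a log2 fold change of 6.36 ± 0.074 (SE, adjusted p = 2.9e-16, edgeR). Its partner ITGB4 (chromosome 17, 75721328 to 75757818) had 1258, 1177 and 1356 CPM in MB157R iEV, against 108, 93.3 and 103 CPM in MB157 iEV. The libraries were far apart for both genes, but ITGB4 was already expressed at about 100 CPM in MB157 and differed by only 12.5-fold, a log2 fold change of 3.65 ± 0.064 (SE, adjusted p = 1.1e-14). ITGA3 (chromosome 17, 50055968 to 50090481), which pairs with ITGB1 and also binds the laminin of hemidesmosomes, had 1699, 1622 and 1817 CPM in MB157R iEV, against 23.2, 24.9 and 22.9 CPM in MB157 iEV. That is a 72.4-fold difference, on a par with the 82.3-fold of ITGA6.

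ITGA2 (chromosome 5, 52989340 to 53094779), a collagen and laminin receptor subunit, had 526, 481 and 514 CPM in MB157R iEV, against 11.3, 8.88 and 9.05 CPM in MB157 iEV (log2 fold change 5.71 ± 0.074, SE). Its neighbour on the same strand, ITGA1 (chromosome 5, 52787916 to 52959209), another collagen receptor subunit, had 12.7, 14.0 and 13.0 CPM in MB157R iEV, against 0.185, 0.0950 and 0.0981 CPM in MB157 iEV. Both neighbours were low in every MB157 library and higher in every MB157R library, but the ITGA1 value is uncertain because exons of PELO overlap it on the same strand. ITGA5, the fibronectin receptor subunit, had 17.2, 18.1 and 19.5 CPM in MB157R iEV, against 4.07, 3.59 and 3.39 CPM in MB157 iEV, a 4.96-fold difference. ITGB1 (chromosome 10, 32887273 to 33005792), which these alpha subunits share, had 865, 859 and 944 CPM in MB157R iEV, against 267, 268 and 268 CPM in MB157 iEV. ITGB1 rose 3.32-fold, less than ITGA1, ITGA2, ITGA3 and ITGA6, alpha subunits it can pair with.

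Among the subunits of the RGD receptors, ITGB6 (chromosome 2, 160099667 to 160200313), an epithelial partner of ITGAV that activates latent TGF-beta, had 334, 338 and 347 CPM in MB157R iEV and 0 counts in each MB157 iEV library. Against a floor of 3 counts over the 3 MB157 iEV libraries, it was at least 13074-fold higher. ITGAV (chromosome 2, 186590010 to 186680901), the alpha subunit these receptors share, had 477, 453 and 484 CPM in MB157R iEV, against 70.0, 79.6 and 72.2 CPM in MB157 iEV. ITGB8, which presents latent TGF-beta, had 234, 219 and 197 CPM in MB157R iEV, against 61.4, 59.7 and 60.3 CPM in MB157 iEV. ITGB5, a vitronectin receptor subunit, had 176, 175 and 189 CPM in MB157R iEV, against 82.0, 76.0 and 84.0 CPM in MB157 iEV. In all 4 the lowest MB157R iEV library lay above the highest MB157 iEV library, with log2 fold changes of 2.67 for ITGAV, 1.84 for ITGB8 and 1.16 for ITGB5.

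ITGA9 (chromosome 3, 37452115 to 37823507), an ITGB1 partner that binds tenascin and other matrix proteins, ran the other way. It had 0.161, 0.0734 and 0.249 CPM in MB157R iEV, against 40.7, 39.5 and 42.5 CPM in MB157 iEV (log2 fold change -7.92 ± 0.140, SE, adjusted p = 1.2e-14). It was the one integrin subunit called lower among the 14 tested. ITGB2, the beta subunit of leukocyte integrins, stood at 31.9 ± 3.77 CPM in MB157R iEV and 31.5 ± 1.19 CPM in MB157 iEV (SD, n = 3 each), and ITGAE, a subunit that binds E-cadherin, at 8.08 ± 0.905 and 8.71 ± 0.687 CPM. Neither differed beyond the spread of its libraries (log2 fold changes 0.02 ± 0.075 and -0.11 ± 0.104, SE). The sum of 9 leukocyte markers lay between 4.06 and 5.42 CPM in MB157R iEV and between 38.8 and 42.0 CPM in MB157 iEV, of which CD14 made up 37.4 CPM in MB157 iEV. The defining leukocyte marker PTPRC had 1 count in MB157R iEV and 1 in MB157 iEV over 3 libraries each.

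Laminin chains differed by chain rather than as a block. Of the 8 that passed the authors' filter 6 were higher in MB157R and 2 lower, against 45.0% and 45.3% of all genes tested. Outside the filter LAMB4 and LAMC3 were called lower in MB157R iEV in a fit with no filter, described below, and LAMA2 was not called. LAMA3 (chromosome 18, 23689453 to 23956222), the alpha chain of the hemidesmosome laminin, had 567, 546 and 628 CPM in MB157R iEV, against 5.11, 5.34 and 4.98 CPM in MB157 iEV, a 113-fold difference (log2 fold change 6.82 ± 0.07, SE, adjusted p = 1.2e-16). LAMB3 (chromosome 1, 209614870 to 209652425), its beta chain, had 585, 584 and 634 CPM in MB157R iEV, against 244, 232 and 234 CPM in MB157 iEV. MB157 cells thus held LAMB3 transcript in quantity beside about 5 CPM of LAMA3, and LAMB3 differed by 2.54-fold. LAMA1 (chromosome 18, 6941742 to 7117797), the alpha chain of the early embryonic laminin, had 189.8, 170 and 200.3 CPM in MB157R iEV. In MB157 iEV only 4 counts over 3 libraries fell on LAMA1.

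LAMC1, the gamma chain of most laminins, had 468, 426 and 507 CPM in MB157R iEV, against 158, 149 and 157 CPM in MB157 iEV (3.02-fold). LAMB1, the common beta chain, averaged 526 ± 24.8 CPM in MB157R iEV and 270.5 ± 5.74 CPM in MB157 iEV (SD, n = 3 each), and LAMA5, the alpha chain widespread in adult epithelial basement membranes, 459 ± 50.4 and 290 ± 26.6 CPM. LAMB1 and LAMA5 were called higher by less than 2-fold (1.94-fold and 1.58-fold). LAMA4 (chromosome 6, 112107931 to 112254939), the alpha chain of vascular and mesenchymal basement membranes, had 8.26, 8.35 and 11.1 CPM in MB157R iEV, against 23.5, 23.3 and 23.1 CPM in MB157 iEV. LAMB2 (chromosome 3, 49121114 to 49133118), the beta chain of neuromuscular and kidney basement membranes, had 65.3, 71.4 and 62.3 CPM in MB157R iEV, against 165, 143 and 149 CPM in MB157 iEV. Both were lower in every MB157R iEV library, by 2.52-fold for LAMA4 and 2.30-fold for LAMB2 (log2 fold changes -1.33 ± 0.098 and -1.20 ± 0.059, SE).

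**Figure D2:**
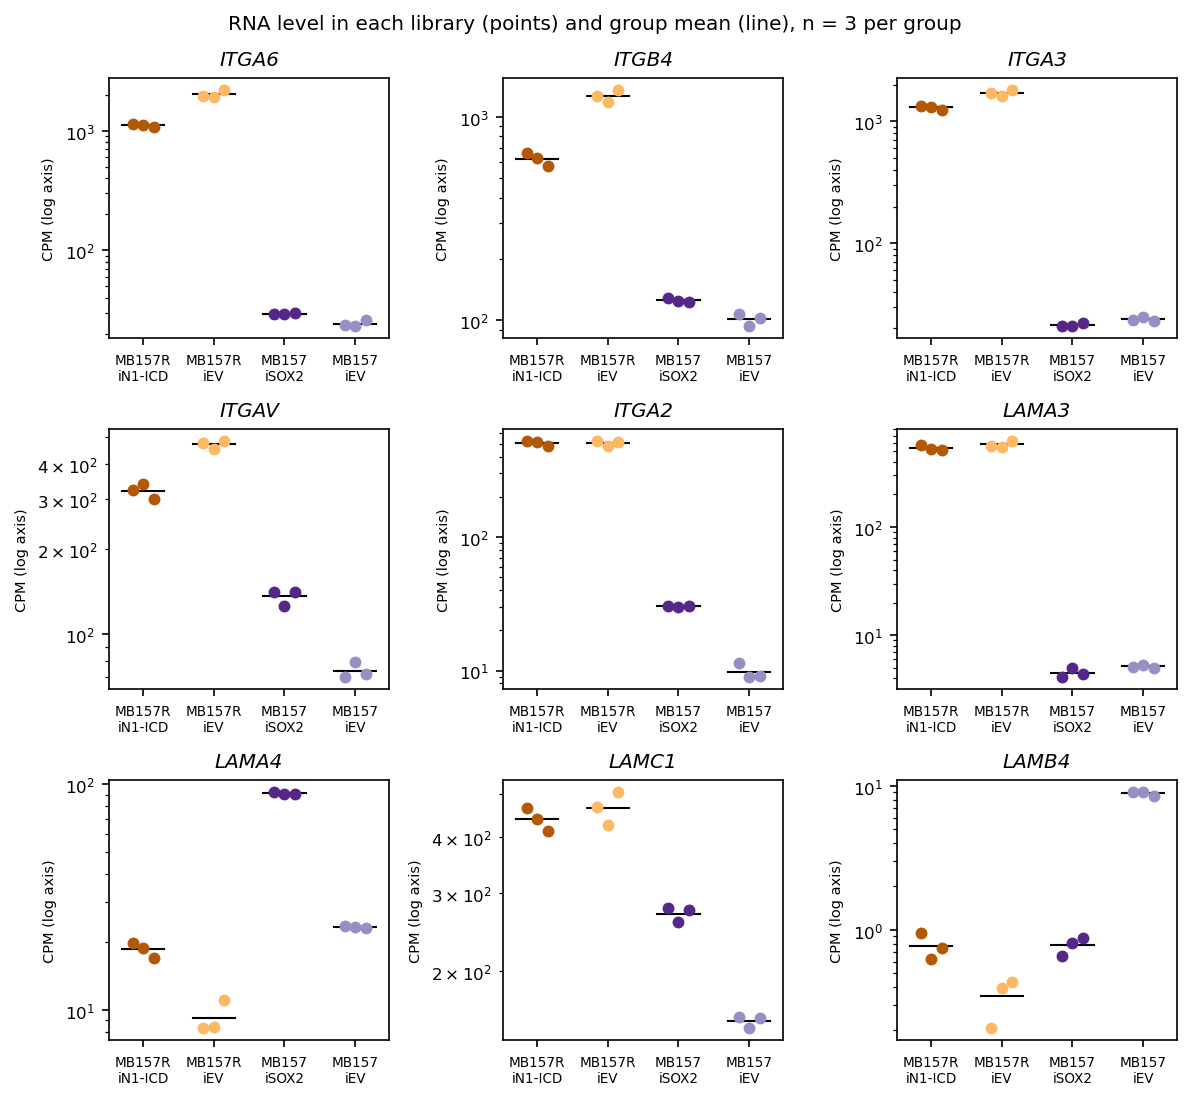
Each panel shows 1 gene, with the CPM of every library as a point on a log axis and the mean of 3 libraries as a line, for MB157R iN1-ICD, MB157R iEV, MB157 iSOX2 and MB157 iEV from left to right. ITGA6, ITGB4, ITGA3, ITGAV, ITGA2, LAMA3 and LAMC1 are higher in both MB157R groups than in both MB157 groups, LAMA4 is highest in MB157 iSOX2 (92.6, 90.5 and 90.9 CPM), and LAMB4 is highest in MB157 iEV (9.06, 9.10 and 8.51 CPM).

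Levels of different genes were set side by side per kilobase of the canonical transcript, summed within each family. Integrin alpha subunits together stood at 835 ± 51.1 CPM per kilobase in MB157R iEV and 32.5 ± 0.379 CPM per kilobase in MB157 iEV, and integrin beta subunits at 602 ± 30.0 and 125 ± 2.44 CPM per kilobase (SD, n = 3 each). The summed alpha level was thus above the summed beta level in MB157R and below it in MB157. ITGA3 and ITGA6 made up 41.9% ± 0.262 and 41.2% ± 0.955 of the alpha sum in MB157R iEV, against 14.9% ± 0.509 and 12.9% ± 0.914 in MB157 iEV (SD). In MB157 iEV the largest single share was that of ITGAV at 32.3% ± 1.81, against 8.03% ± 0.278 in MB157R iEV, followed by ITGA9 at 16.0% ± 0.703 in MB157 iEV. Among beta subunits ITGB4 held 35.6% ± 0.874 in MB157R iEV, against 13.7% ± 0.732 in MB157 iEV, and ITGB1 held 39.6% ± 0.453 against 57.4% ± 1.20.

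The makeup of the laminin alpha chains differed most between the lines. LAMA5 held 34.8% ± 2.22 of the alpha chain sum in MB157R iEV, against 86.9% ± 0.931 in MB157 iEV. LAMA3 held 47.3% ± 1.98 in MB157R iEV, against 1.66% ± 0.143 in MB157 iEV, and LAMA1 16.8% ± 0.197 against 0.0120% ± 0.0104. MB157 was thus a line in which the laminin alpha transcript was largely LAMA5, and MB157R one in which LAMA3, LAMA5 and LAMA1 shared it. Of the beta chains, LAMB3 held 58.8% ± 0.296 in MB157R iEV, against 43.6% ± 0.370 in MB157 iEV, and LAMB2 4.59% ± 0.485 against 19.8% ± 0.812. These shares are descriptions with no test, and they rest on 1 transcript length per gene.

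The second comparison asks what 72 h of SOX2 changed in the drug-sensitive line. It tested 17 of the 37 genes, and in MB157 iSOX2 10 were higher, 5 were lower (ITGB2, LAMB1, LAMA5, ITGA3 and ITGA9) and 2 were not called (ITGAE and LAMB2). The share of these genes that was called was 88.2%, against 66.4% of all 10904 genes tested (32.5% higher and 33.9% lower). The median log2 fold change was 0.28 over the 17 genes and -0.00 over all genes tested. LAMA4, ITGA2 and ITGB8 were the 3 at least 2-fold higher, against 3.46% of all genes, and 0 of the 17 were 2-fold lower, against 2.60%. The groups did not overlap for 15 of the 17 genes tested, all 15 of them called, and for 70.0% of all genes tested. Scaling by library totals alone moved all genes by 0.06 at the median and the split of all calls to 4396 higher and 2859 lower, against 3539 and 3698, and left 3 of the 5 lower calls. ITGA3 and ITGA9 were the calls lost (adjusted p = 0.185 and 0.119, edgeR). Without MB157 iSOX2 replicate 1 there were also 3 lower calls, with adjusted p = 0.126 for ITGA3 and 0.0833 for ITGA9. The ITGA3 call was further lost with DESeq2 (adjusted p = 0.0665), without MB157 iSOX2 replicate 2 (0.0978) and without MB157 iEV replicate 2 (0.150), and that of ITGA9 in the fit of all 12 libraries (0.0563), without MB157 iSOX2 replicate 3 (0.0515) and without MB157 iEV replicate 3 (0.0587).

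LAMA4 rose most of the 17 genes tested. It had 92.6, 90.5 and 90.9 CPM in MB157 iSOX2, against 23.5, 23.3 and 23.1 CPM in MB157 iEV, a 3.92-fold difference with little spread in either group (log2 fold change 1.97 ± 0.039, SE, adjusted p = 2.7e-16). Its share of the laminin alpha chains per kilobase was 37.6% ± 1.23 in MB157 iSOX2, against 11.1% ± 0.783 in MB157 iEV (SD, n = 3 each), while that of LAMA5 was 59.5% ± 1.31 against 86.9% ± 0.931. LAMA5 itself fell, to 229 ± 15.5 CPM in MB157 iSOX2, against 290 ± 26.6 CPM in MB157 iEV. The summed laminin alpha level was 33.6 ± 1.53 CPM per kilobase in MB157 iSOX2 and 29.2 ± 2.36 in MB157 iEV, so the makeup differed more than the total. LAMC1 had 277, 258 and 274 CPM in MB157 iSOX2, against 158, 149 and 157 CPM in MB157 iEV (log2 fold change 0.81 ± 0.034, SE). LAMB1 fell, to 189, 182 and 196 CPM in MB157 iSOX2, against 276, 264 and 271 CPM in MB157 iEV (-0.51 ± 0.032, SE).

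LAMA4 is also a transcript of endothelium, whose 4 markers summed to between 103 and 111 CPM in MB157 iSOX2 and between 7.43 and 8.32 CPM in MB157 iEV. PECAM1 alone gave 92.6, 99.9 and 91.0 CPM in MB157 iSOX2, against 0, 0.0475 and 0.0245 CPM in MB157 iEV. Of the other markers, KDR was 2.70-fold and VWF 1.16-fold higher in MB157 iSOX2, and CDH5 had too few counts for a fold. The part of endothelium in the LAMA4 result was not tested. The 6 fibroblast markers summed to between 68.9 and 75.6 CPM in MB157 iSOX2 and between 42.3 and 49.9 CPM in MB157 iEV.

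ITGA2 had 30.2, 30.1 and 30.3 CPM in MB157 iSOX2, against 11.3, 8.88 and 9.05 CPM in MB157 iEV, a 3.10-fold difference (log2 fold change 1.64 ± 0.074, SE, adjusted p = 9.7e-12). ITGB8 had 145, 129.7 and 139 CPM in MB157 iSOX2, against 61.4, 59.7 and 60.3 CPM in MB157 iEV (1.19 ± 0.04). These were the largest rises among the integrin subunits tested. ITGAV had 140.5, 126 and 140.4 CPM in MB157 iSOX2, against 70.0, 79.6 and 72.2 CPM in MB157 iEV, and ITGB5 had 126, 134 and 132 CPM in MB157 iSOX2, against 82.0, 76.0 and 84.0 CPM in MB157 iEV. With ITGB8 these form RGD receptors, and each of the 3 genes was higher in every MB157 iSOX2 library. ITGB6, the remaining epithelial partner of ITGAV, had 0 counts in all 6 libraries.

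The laminin receptor subunits ITGA6, ITGB4 and ITGA3 and the shared ITGB1 moved by less than 1.5-fold with SOX2. ITGA6 had 29.7, 29.6 and 29.9 CPM in MB157 iSOX2, against 23.7, 23.2 and 26.2 CPM in MB157 iEV, a 1.22-fold rise (log2 fold change 0.29 ± 0.053, SE, adjusted p = 0.00016). ITGB4 had 129, 124 and 123 CPM in MB157 iSOX2, against 108, 93.3 and 103 CPM in MB157 iEV, and ITGB1 had 326, 326 and 319 CPM in MB157 iSOX2, against 267, 268 and 268 CPM in MB157 iEV. For both the groups did not overlap, at 1.24-fold and 1.21-fold. ITGA3 had 20.8, 21.1 and 22.3 CPM in MB157 iSOX2, against 23.2, 24.9 and 22.9 CPM in MB157 iEV, and ITGA9 had 34.8, 38.8 and 36.6 CPM in MB157 iSOX2, against 40.7, 39.5 and 42.5 CPM in MB157 iEV, the pair of small falls that depends on the scaling. The level of ITGA6 after SOX2 induction, 29.7 CPM, stood beside 2005 CPM in MB157R iEV, and that of ITGA3, 21.4 CPM, beside 1713 CPM.

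ITGB2 fell most of the integrin subunits tested, to 17.5, 19.6 and 17.5 CPM in MB157 iSOX2, against 32.7, 30.4 and 31.4 CPM in MB157 iEV (log2 fold change -0.79 ± 0.057, SE, adjusted p = 3.8e-09). The 9 leukocyte markers summed to between 8.87 and 10.7 CPM in MB157 iSOX2 and between 38.8 and 42.0 CPM in MB157 iEV, with 28 PTPRC counts in MB157 iSOX2 and 1 in MB157 iEV. Their part in the ITGB2 result was not tested. LAMB3 rose by 1.06-fold (245, 254 and 252 CPM in MB157 iSOX2, against 244, 232 and 234 CPM in MB157 iEV), a call that was lost in the fit of all 12 libraries (adjusted p = 0.151, edgeR) and without MB157 iSOX2 replicate 2 (0.0572), MB157 iEV replicate 2 (0.0681) or MB157 iEV replicate 3 (0.0599). LAMB2 averaged 146 ± 5.94 CPM in MB157 iSOX2 and 152 ± 11.4 CPM in MB157 iEV, and ITGAE 8.10 ± 0.337 and 8.71 ± 0.687 CPM (SD, n = 3 each), with neither called. LAMA3 stayed low, with 4.07, 5.02 and 4.34 CPM in MB157 iSOX2, against 5.11, 5.34 and 4.98 CPM in MB157 iEV, and LAMA1 had 9 counts in MB157 iSOX2 and 4 in MB157 iEV. Neither of these alpha chains, those with the largest contrast between the lines, reached its MB157R level after SOX2.

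**Figure D3:**
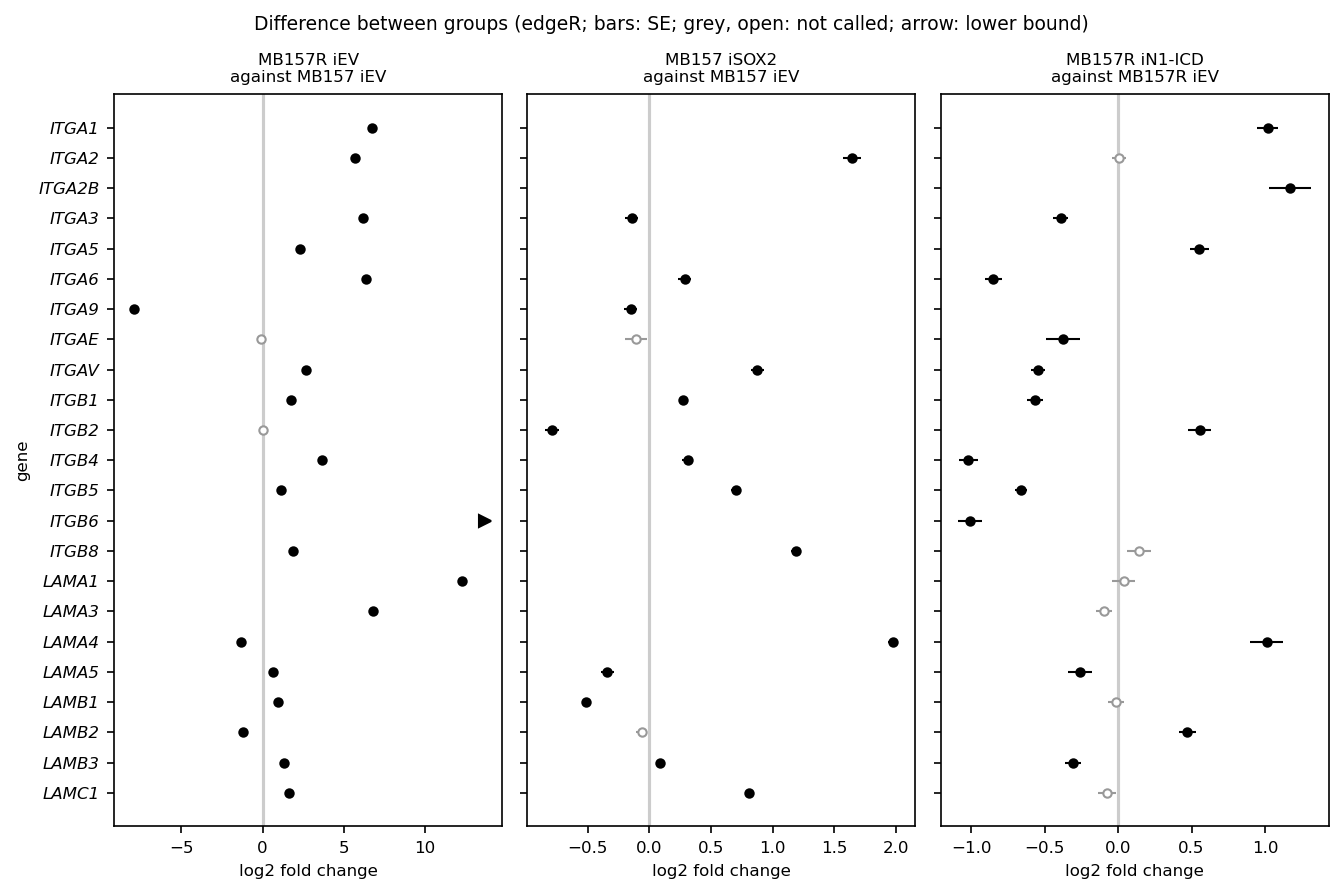
Points give the log2 fold change of each gene tested in MB157R iEV against MB157 iEV (left), MB157 iSOX2 against MB157 iEV (middle) and MB157R iN1-ICD against MB157R iEV (right), with SE bars; open grey points were not called, the arrow for ITGB6 is a lower bound, and the axes differ in range. The left panel reaches past 12 for LAMA1, which had 4 counts in MB157 iEV, whereas the other panels stay within about 2 of 0.

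The third comparison asks what 72 h of active NOTCH1 changed in the resistant line. It tested 22 of the 37 genes, and in MB157R iN1-ICD 6 were higher, 10 were lower and 6 were not called (ITGA2, ITGB8, LAMA1, LAMA3, LAMB1 and LAMC1). The share of these genes that was called was 72.7%, against 59.1% of all 11210 genes tested (29.8% higher and 29.3% lower). The median log2 fold change was -0.09 over the 22 genes and -0.00 over all genes tested. Of the 14 integrin subunits tested 4 rose and 8 fell, and of the 8 laminin chains 2 rose and 2 fell. At 2-fold or more 3 rose (ITGA1, ITGA2B and LAMA4, against 4.48% of all genes) and 2 fell (ITGB4 and ITGB6, against 0.687%), and 0 of the 22 passed edgeR's test against a 2-fold difference (1 at an unadjusted p under 0.05). The groups did not overlap for 15 of the 22 genes tested, all 15 of them called, and for 64.8% of all genes tested.

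The hemidesmosome integrin fell in both subunits. ITGB4 had 663, 627 and 571 CPM in MB157R iN1-ICD, against 1258, 1177 and 1356 CPM in MB157R iEV, 2.04-fold lower (log2 fold change -1.02 ± 0.062, SE, adjusted p = 2.4e-07). ITGA6 had 1139.7, 1116 and 1068 CPM in MB157R iN1-ICD, against 1934, 1889 and 2192 CPM in MB157R iEV (-0.85 ± 0.056, adjusted p = 4.5e-07). Both stayed far above MB157 iEV, where ITGB4 averaged 101 CPM and ITGA6 24.4 CPM. ITGA3 had 1348, 1315 and 1234 CPM in MB157R iN1-ICD, against 1699, 1622 and 1817 CPM in MB157R iEV (-0.39 ± 0.051), and ITGB1 had 589, 642 and 567 CPM in MB157R iN1-ICD, against 865, 859 and 944 CPM in MB157R iEV (-0.56 ± 0.054). The summed integrin alpha level was 579 ± 23.3 CPM per kilobase in MB157R iN1-ICD and 835 ± 51.1 in MB157R iEV, and the beta level 371 ± 24.9 and 602 ± 30.0 (SD, n = 3 each).

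ITGB6 had 164, 195 and 146 CPM in MB157R iN1-ICD, against 334, 338 and 347 CPM in MB157R iEV (2.02-fold lower, adjusted p = 2e-06, edgeR). ITGAV had 324, 339 and 301 CPM in MB157R iN1-ICD, against 477, 453 and 484 CPM in MB157R iEV, and ITGB5 had 113, 118 and 109 CPM in MB157R iN1-ICD, against 176, 175 and 189 CPM in MB157R iEV. All 3 RGD receptor subunits were lower in every MB157R iN1-ICD library. ITGB8, in contrast, had 224, 270.5 and 219.9 CPM in MB157R iN1-ICD, against 234, 219 and 197 CPM in MB157R iEV, with overlapping groups and no call (adjusted p = 0.16, edgeR). ITGA2 likewise had 525, 516 and 479 CPM in MB157R iN1-ICD, against 526, 481 and 514 CPM in MB157R iEV, a log2 fold change of 0.01 ± 0.047 (SE).

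The subunits that rose were of lower level. ITGA1 had 26.5, 28.4 and 25.0 CPM in MB157R iN1-ICD, against 12.7, 14.0 and 13.0 CPM in MB157R iEV (log2 fold change 1.02 ± 0.07, SE), again with PELO exons on the same strand. ITGA2B, the alpha subunit of the platelet fibrinogen receptor, had 4.49, 5.91 and 5.06 CPM in MB157R iN1-ICD, against 2.13, 2.42 and 2.35 CPM in MB157R iEV (1.17 ± 0.145). Both were about 2-fold higher with no overlap between the groups. ITGA5 had 25.3, 27.0 and 27.6 CPM in MB157R iN1-ICD, against 17.2, 18.1 and 19.5 CPM in MB157R iEV, and ITGB2 had 44.7, 50.6 and 44.6 CPM in MB157R iN1-ICD, against 29.3, 30.1 and 36.2 CPM in MB157R iEV. ITGAE fell, at 6.19 ± 0.560 CPM in MB157R iN1-ICD and 8.08 ± 0.905 CPM in MB157R iEV, a call lost without MB157R iN1-ICD replicate 1 (adjusted p = 0.0696, edgeR) or MB157R iEV replicate 2 (0.0679). Markers of platelets summed to between 1.05 and 1.14 CPM in MB157R iN1-ICD and between 0.520 and 0.757 CPM in MB157R iEV, and those of leukocytes to between 14.2 and 15.6 CPM and between 4.06 and 5.42 CPM, with 15 PTPRC counts in MB157R iN1-ICD and 1 in MB157R iEV. Their part in the ITGA2B and ITGB2 results was not tested.

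The laminin chains that were called moved by about 2-fold at most. LAMA4 had 19.7, 18.8 and 17.0 CPM in MB157R iN1-ICD, against 8.26, 8.35 and 11.1 CPM in MB157R iEV (log2 fold change 1.01 ± 0.111, SE, adjusted p = 2e-05). LAMA4 belongs to the NOTCH signature that the study drew up partly on these libraries, so its rise is not independent evidence of the direction of that list. The 4 endothelial markers summed to between 26.0 and 30.1 CPM in MB157R iN1-ICD and between 4.24 and 4.66 CPM in MB157R iEV, most of it KDR, and the 6 fibroblast markers to between 159 and 169 CPM and between 76.5 and 89.6 CPM. Their part in the LAMA4 result was not tested. LAMB2 had 92.0, 95.1 and 86.9 CPM in MB157R iN1-ICD, against 65.3, 71.4 and 62.3 CPM in MB157R iEV (0.47 ± 0.058), and LAMB3 had 519, 486 and 444 CPM in MB157R iN1-ICD, against 585, 584 and 634 CPM in MB157R iEV (-0.31 ± 0.056). LAMB2, lower in MB157R than in MB157, thus rose and LAMB3, higher in MB157R, fell, neither reaching the level in MB157 iEV.

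LAMA5 averaged 382 ± 40.6 CPM in MB157R iN1-ICD and 459 ± 50.4 CPM in MB157R iEV (SD, n = 3 each), with overlapping libraries and a call (adjusted p = 0.0216, edgeR) that was lost without MB157R iN1-ICD replicate 2 (0.0672) or 3 (0.0881) or MB157R iEV replicate 1 (0.107). LAMA3 had 575, 529 and 519 CPM in MB157R iN1-ICD, against 567, 546 and 628 CPM in MB157R iEV, and LAMA1 had 205, 200.4 and 166 CPM in MB157R iN1-ICD, against 189.8, 170 and 200.3 CPM in MB157R iEV. The alpha chains that set MB157R apart from MB157 most were thus not called after N1-ICD, with log2 fold changes of -0.09 ± 0.056 for LAMA3 and 0.04 ± 0.078 for LAMA1 (SE). LAMC1 had 466, 440.2 and 414 CPM in MB157R iN1-ICD, against 468, 426 and 507 CPM in MB157R iEV, and LAMB1 averaged 518 ± 32.8 CPM in MB157R iN1-ICD and 526 ± 24.8 CPM in MB157R iEV. ITGA9 stayed low, with 0.219, 0.377 and 0.351 CPM in MB157R iN1-ICD, against 0.161, 0.0734 and 0.249 CPM in MB157R iEV.

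The effects of SOX2 in MB157 and of N1-ICD in MB157R share no library, so their difference was tested in 1 fit of all 12. Of the 16 genes tested in both, 11 had a higher SOX2 effect, 3 a lower one (ITGB2, LAMB1 and LAMB2) and 2 were not called (LAMA5 and ITGAE), while 63.0% of the 10024 genes tested were called (30.8% higher and 32.2% lower). With library totals alone the split of all calls was 3751 higher and 2582 lower, against 3085 and 3230, and the 11 and 3 stood. ITGA6, ITGAV, ITGB1, ITGB4, ITGB5 and LAMB3 rose with SOX2 and fell with N1-ICD, with the difference called. These 6 of 16 genes compare with 9.36% of all genes tested in both. ITGB2 was the 1 gene with the opposite pattern, found in 9.89% of all genes, and LAMA4, ITGA3 and LAMA5 were called in the same direction with both, as 20.7% of all genes were. The SOX2 call of ITGA3 and the N1-ICD call of LAMA5 were each lost in some fits.

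The difference of the 2 effects was 1.41 ± 0.076 on the log2 scale for ITGAV (SE, adjusted p = 8.3e-11, edgeR), 1.35 ± 0.062 for ITGB5 and 1.32 ± 0.084 for ITGB4. ITGA6 differed by 1.12 ± 0.077, ITGB1 by 0.83 ± 0.061 and LAMB3 by 0.38 ± 0.068 (adjusted p = 0.00012), LAMB3 being the gene whose SOX2 call was lost in some fits. ITGA2 (1.63 ± 0.088), ITGB8 (1.04 ± 0.103) and LAMC1 (0.87 ± 0.077) rose with SOX2 and were not called with N1-ICD, and the difference was called for each. ITGB2 differed by -1.35 ± 0.107, LAMB1 by -0.51 ± 0.064 and LAMB2 by -0.54 ± 0.08. LAMA4 rose with both, more with SOX2 (difference 0.95 ± 0.110, adjusted p = 1.2e-06). LAMA5 fell with both, with an N1-ICD call that was lost in some fits, and the difference of -0.09 ± 0.117 did not pass the threshold (adjusted p = 0.504).

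Promoters of these genes were searched for the core letters of the RBPJ site (TGGGAA or its reverse TTCCCA), through which NOTCH acts on DNA, and of the SOX site (ACAATG or CATTGT), on both strands and with no overlap between the motifs. RefSeq (GRCh38.p14) gave 33 promoters of 300 bases, 250 before and 50 after the start, for 26 of the 37 genes. The RBPJ letters were in 2 of the 33 promoters, those of ITGA11 and LAMB2, and in 24% of all 35116 promoters in the table. The SOX letters were in 1 promoter, that of LAMB3, and in 10.8% of all promoters. LAMB2 and LAMB3 are printed because they are the 2 tested genes that held a match and because N1-ICD moved them in opposite directions. Capitals mark the matched letters, which in LAMB2 (chr3:49133001-49133300, minus strand, 5′ to 3′) start 49 and 11 bases before the start site and in LAMB3 (chr1:209652376-209652675, minus strand) 210 bases before it.
LAMB2: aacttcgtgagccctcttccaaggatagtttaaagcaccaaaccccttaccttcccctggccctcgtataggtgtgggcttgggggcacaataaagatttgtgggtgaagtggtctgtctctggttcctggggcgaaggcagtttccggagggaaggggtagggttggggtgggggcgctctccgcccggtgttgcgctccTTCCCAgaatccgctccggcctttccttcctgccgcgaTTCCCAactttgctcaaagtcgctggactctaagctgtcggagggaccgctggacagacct
LAMB3: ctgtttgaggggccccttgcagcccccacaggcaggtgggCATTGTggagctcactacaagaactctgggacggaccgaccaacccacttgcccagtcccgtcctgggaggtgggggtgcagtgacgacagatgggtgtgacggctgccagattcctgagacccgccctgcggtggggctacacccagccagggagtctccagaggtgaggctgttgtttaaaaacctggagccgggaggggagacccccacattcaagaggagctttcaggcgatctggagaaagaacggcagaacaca
LAMB2 rose with N1-ICD by 0.47 on the log2 scale and was not called with SOX2, and LAMB3 rose with SOX2 by 0.09 and fell with N1-ICD. The start sites here are those of RefSeq. On the annotation used for positions above, LAMB2 reaches to 49133118, so both of its matches lie inside the gene as placed there. A match of 6 letters is a description and not a binding site.

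The genes outside the authors' filter were read from a fit with no filter, which tested 35, 33 and 36 of the 37 genes in the comparisons of lines, SOX2 and N1-ICD. In the comparison of lines it called 19 genes higher instead of 17, where 7487 of all 21060 genes were called higher. The added ones were ITGA2B and ITGB3. The same fit called 10 genes lower instead of 3, where 37.6% of all genes were called lower. Added here were ITGA4, ITGA7, ITGA10, ITGAL, ITGAM, LAMB4 and LAMC3. ITGA10, a collagen receptor subunit of cartilage, averaged 0.187 ± 0.115 CPM in MB157R iEV and 8.41 ± 0.883 CPM in MB157 iEV (SD, n = 3 each), and ITGA4, a VCAM1 and fibronectin receptor subunit, 0.0321 ± 0.0376 and 2.08 ± 0.281 CPM. ITGA7, a laminin receptor subunit of muscle, averaged 0.600 ± 0.229 CPM in MB157R iEV and 3.03 ± 0.469 CPM in MB157 iEV. LAMC3 had 1 count over the 3 MB157R iEV libraries and 827 over the 3 MB157 iEV libraries. Apart from ITGA9, the integrin genes called lower in MB157R were thus already of low level in MB157.

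LAMB4 (chromosome 7, 108023548 to 108130361), a little-studied beta chain next to LAMB1 on the same strand, had 0.206, 0.392 and 0.436 CPM in MB157R iEV, against 9.06, 9.10 and 8.51 CPM in MB157 iEV. With SOX2 it fell to 0.662, 0.806 and 0.881 CPM in MB157 iSOX2, 11.4-fold lower (log2 fold change -3.50 with no filter, adjusted p = 1.1e-25, edgeR). With N1-ICD it had 0.942, 0.629 and 0.750 CPM in MB157R iN1-ICD, against 0.206, 0.392 and 0.436 CPM in MB157R iEV (1.14, adjusted p = 0.0143). Its neighbour LAMB1 was higher in MB157R than in MB157, so the adjacent genes ran in opposite directions between the lines. LAMC3, a gamma chain, followed the order of LAMB4 at 3.87 CPM in MB157 iSOX2 and 7.17 CPM in MB157 iEV, with 16 counts over the MB157R iN1-ICD libraries and 1 over MB157R iEV.

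LAMA2, the alpha chain of muscle laminin, had 6.03, 4.99 and 4.79 CPM in MB157 iSOX2, against 0.986, 1.16 and 0.589 CPM in MB157 iEV (log2 fold change 2.53 with no filter, adjusted p = 1.3e-16, edgeR), and 1.88, 2.04 and 1.52 CPM in MB157R iN1-ICD, against 0.872, 0.685 and 0.935 CPM in MB157R iEV (1.10). Like LAMA4 it was higher in both inductions. ITGA4 rose with SOX2 to 4.35 ± 0.189 CPM in MB157 iSOX2, against 2.08 ± 0.281 CPM in MB157 iEV, and ITGA10 fell to 3.74 ± 0.657 CPM in MB157 iSOX2, against 8.41 ± 0.883 CPM in MB157 iEV. ITGB3, the beta subunit of the platelet and vitronectin receptors, averaged 1.47 ± 0.267 CPM in MB157R iN1-ICD and 0.293 ± 0.0217 CPM in MB157R iEV, a value that is uncertain because an unnamed gene overlaps its exons on the same strand. Its platelet partner ITGA2B averaged 0.930 ± 0.0892 CPM in MB157 iSOX2 and 1.76 ± 0.116 CPM in MB157 iEV (-0.92 with no filter). With no filter SOX2 had 16 genes higher and 10 lower (22.7% and 21.9% of all genes), and N1-ICD 10 higher and 10 lower (22.2% and 20.5%).

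The 7 genes under 1 CPM in every group were given by their counts summed over 3 libraries. ITGAL, the alpha subunit of the lymphocyte integrin, had 5 in MB157R iN1-ICD, 2 in MB157R iEV, 21 in MB157 iSOX2 and 82 in MB157 iEV, and ITGAM, its myeloid counterpart, at most 14 in any group. ITGAX, a dendritic cell subunit, had 0 counts in all 12 libraries, ITGA8, a nephronectin receptor subunit, and ITGAD, a leukocyte subunit, had 2 counts in 1 group each and 0 elsewhere, and ITGB7, a gut-homing subunit, and ITGA11, a collagen receptor subunit of fibroblasts, had at most 20 and 21 in any group. ITGB2 was thus expressed while none of its alpha partners ITGAL, ITGAM, ITGAX and ITGAD was above 1 CPM in these cells. A count of 0 over 3 libraries allows up to 3 counts, which covers counting error only.

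Genes that work with integrins and laminins were read from 6 lists. Their counts stand against 45.0% higher and 45.3% lower of all genes tested between the lines, 32.5% and 33.9% with SOX2, and 29.8% and 29.3% with N1-ICD. Of 6 tested hemidesmosome and keratin anchor genes, 4 were higher and 2 lower in MB157R iEV than in MB157 iEV. COL17A1, the collagen of the hemidesmosome, had 488, 464 and 578 CPM in MB157R iEV, against 0.524, 0.617 and 0.491 CPM in MB157 iEV, and DST, the plakin that ties it to keratin, averaged 222 ± 31.1 CPM in MB157R iEV and 51.9 ± 2.40 CPM in MB157 iEV. The basal keratins KRT14 and KRT5 were the 2 that were lower (log2 fold changes -3.01 and -0.78). With SOX2, COL17A1 had 23.9, 21.8 and 20.0 CPM in MB157 iSOX2, against 0.524, 0.617 and 0.491 CPM in MB157 iEV (5.32, adjusted p = 1.9e-15, edgeR), and DST was also higher (1.51), while KRT5 (-2.05) and KRT14 (-1.40) were lower. With N1-ICD, COL17A1 had 179, 185 and 162 CPM in MB157R iN1-ICD, against 488, 464 and 578 CPM in MB157R iEV (-1.53), PLEC, another plakin, was lower too (-1.50), and KRT14 (6.58) and KRT5 (1.58) were higher. COL17A1 thus had the signs of ITGA6 and ITGB4 in all 3 comparisons, and KRT5 and KRT14 had the opposite signs. Of the other keratins, read from the epithelial markers, KRT17 (4.74), KRT8 (2.07), KRT18 (2.06) and KRT19 (1.61) were higher in MB157R iEV than in MB157 iEV, unlike KRT5 and KRT14, and like them all 4 were lower with SOX2 and higher with N1-ICD.

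Of 12 basement membrane partners of laminins 9 were tested, and all 9 were higher in MB157R iEV, against 45.0% of all genes, and 7 of them by at least 2-fold, against 20.7%, with COL4A6, a collagen IV chain, at 143 ± 15.6 CPM in MB157R iEV and 1 count in MB157 iEV, and HSPG2, perlecan, at 663 ± 128 and 34.8 ± 2.74 CPM. Here as in the other lists, a gene passes the authors' filter through the group in which it is high. The direction of COL4A6 thus followed from passing, and the counts describe the genes that passed. Outside the filter, NID2 and COL4A4 were higher in MB157R iEV, and COL4A3 overlapped between the groups. With SOX2 3 of 7 were higher and 3 lower, against 32.5% and 33.9% of all genes, and with N1-ICD, against 29.8% and 29.3%, 2 of 10 were higher, led by NID2 (1.37), and 4 lower, led by AGRN (-0.71). Of 21 tested proteins that link integrins to actin and signal from them, 15 were higher and 3 lower in MB157R iEV, against 45.0% and 45.3% of all genes, among them FERMT1, the epithelial kindlin that activates integrins, at 192 ± 5.26 CPM in MB157R iEV and 4.98 ± 0.321 CPM in MB157 iEV, and TNS4, a tensin, at 129.8 ± 4.44 and 0.284 ± 0.140 CPM. RSU1 (-1.38) and ACTN4 (-1.11) were the largest falls in MB157R iEV among the tested genes of this list. TNS1, another tensin, was outside the filter here and 116-fold lower in MB157R iEV, with no overlap between the groups. FERMT3, also outside it, was 3.41-fold higher. SOX2 left 10 of 20 higher and 8 lower, with VCL, vinculin, the largest rise (0.78) and TNS1 the largest fall (-0.75). N1-ICD left 5 of 21 higher and 10 lower, with LIMS2 the largest rise (1.38) and TNS4 the largest fall (-1.31).

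Among ligands of the RGD and leukocyte integrins 8 of 12 were higher and 3 lower in MB157R iEV, against 45.0% and 45.3% of all genes. FN1, fibronectin, averaged 1621 ± 136 CPM in MB157R iEV and 5.04 ± 0.271 CPM in MB157 iEV, and 6256 ± 601 CPM in MB157R iN1-ICD, where 5 of 12 ligands were higher and 3 lower. With SOX2 4 of 8 were higher and 4 were not called, the rises led by NPNT, the basement membrane ligand nephronectin, at 211 ± 2.94 CPM in MB157 iSOX2 and 24.4 ± 0.820 CPM in MB157 iEV, and TNC, tenascin-C (1.18). Of the 6 laminin receptors that are not integrins, 3 were higher and 3 lower in MB157R iEV, with the syndecan SDC2 at 0 counts in MB157R iEV and 184 ± 6.41 CPM in MB157 iEV. SOX2 left 2 higher and 4 lower, with SDC1 the largest fall (-1.16), and N1-ICD 1 of 5 higher and 3 lower. Of 6 tetraspanins that bind integrins, 2 were higher and 4 lower in each of the 3 comparisons, and CD82 was the largest rise in MB157R iEV (1.31) and with N1-ICD (0.66) and the largest fall with SOX2 (-0.87).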

How the data were processed

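RNA-seq of 12 libraries in 4 groups of 3 was used, made by the authors from 800 ng of RNA with a stranded kit and read as pairs of 60 bases. Per the labels and the methods, the authors used bclconvert for trimming and the nf-core/rnaseq pipeline (STAR, then Salmon, reverse-stranded) with hg38, and deposited estimated counts (expected counts, not normalized) for 29744 entries. The annotation is not given in the sources used here. For each comparison the authors deposited a table of log2 CPM (TMM by edgeR 3.42.4, voom by limma 3.56.2) of 11435, 10904 and 11210 genes. Their filter kept genes with a mean TPM of at least 2 and a mean count of at least 5 and took out uncharacterized and predicted genes and pseudogenes. Only the gene lists of these tables were used here.

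Estimated counts of these genes were rounded and compared with edgeR's quasi-likelihood test (edgeR 4.0.16, R 4.3.3) on the 6 libraries of a comparison, with TMM factors and no replicate block. A standard error is the size of the log2 fold change divided by the root of F. The 2 inductions were compared in a fit of all 12 libraries over the 10024 genes in both tables. No library repeats another (chi-square per gene between replicates 3.84 to 19.2). Levels per kilobase used canonical GENCODE v44 transcript lengths, where RefSeq lengths had been planned, and gene positions are from the same annotation. The test was checked on simulated data.

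The 37 genes, the gene lists and the markers were chosen with earlier results of these data known. Values of every library are given for genes of at least 10 CPM in a group that were called and at least 2-fold different in a comparison, and means for the rest above 1 CPM. A few genes outside this rule (LAMB4, LAMA2, LAMB1, ITGB2, ITGA2B and COL17A1 among them) are shown by library because a statement rests on them, and were chosen after their values were seen. Alternatives were RLE factors, library totals alone, other filters, limma-voom (limma 3.58.1), DESeq2 1.42.0, edgeR's test of changes beyond 2-fold, 1 fit of 12 libraries, the replicate number as a block and leaving out each library.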

Additional observations from a re-analysis of the deposited data

How the results depend on the processing

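Of 77 gene results with a test, 67 kept their direction and their side of the threshold under every alternative, edgeR's test of changes beyond 2-fold left aside. The remaining 10 are small or near the threshold. The filter moved several counts of called genes. In MB157R iEV against MB157 iEV 9 genes were lower with a mean count of at least 5 and 10 with no filter, against 3. In MB157 iSOX2 against MB157 iEV 16 were higher with no filter, against 10, and 10 were lower with either filter, against 5. In MB157R iN1-ICD against MB157R iEV 10 were higher with no filter, against 6, and in the difference of the inductions 9 were lower with either, against 3. More genes were tested with these filters. The test against a log2 fold change of 1 left 15 higher and 3 lower between the lines, 3 higher and 0 lower with SOX2 and 0 higher and 0 lower with N1-ICD (edgeR, with 1 and 0 at an unadjusted p under 0.05; with SOX2 0 lower also unadjusted). With library totals alone 3 genes were lower with SOX2, and leaving out 1 library gave between 3 and 5.

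Direction turned in 4 results, each uncalled in the test as reported. On the log2 scale ITGA2 with N1-ICD was -0.0157 with a mean count of at least 5, -0.0227 with no filter and -0.00565 in the fit of 12 libraries, and between -0.0267 and 0.0452 leaving out 1 library. ITGB2 between the lines lay between -0.0806 and 0.0811, LAMA1 with N1-ICD between -0.0221 and 0.127 and LAMB1 with N1-ICD between -0.0619 and 0.0297 leaving out 1 library. The difference of effects for ITGAE was called without MB157R iEV replicate 3 (0.35, adjusted p = 0.0434, edgeR). The causes were not tested.

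The labels give the groups the same replicate numbers, but the deviations of same-numbered libraries from their group means correlated between only -0.152 and 0.0635 over 12091 genes, and 1, 2 and 1 of 6 libraries correlated best with their own number. With a replicate block the counts of genes called were the same, 17 higher and 3 lower, 10 and 5, 6 and 10, and 11 and 3, and it changed no call. With library totals alone 111 group mean levels moved by less than 1 SD and 9 by more. Genes under 1 CPM rest on few counts, and a call that was missed there says little at this depth.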
